A study of Mus musculus with 8 samples.

Results

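Dct, the gene of dopachrome tautomerase, and the other genes of the pigment cell (melanocyte) were followed in pancreatic lymph nodes of Deaf1 knockout mice. They were chosen as every non-control probe whose gene name in the scanner files is Dct, Tyr, Tyrp1, Mlana, Si (the older name of Pmel), Pmel, Mitf, Sox10, Oca2 or Slc45a2, which stand for 9 genes. Of these, 8 genes were found by name, with 11 probes and 38 spots, among the 41174 probes of the array. A filter for signal kept 27463 probes of 18410 genes, and among them 6 of the 11 probes, for 5 of the 8 genes: Dct, Pmel, Slc45a2, Mitf and Sox10. The group was chosen by measured values, namely the 4-week ratio of Dct between knockout and wild-type nodes and the detection flags of these probes, so the values of these genes are given as a description. Where the text says how many of them were called in the fit over all genes, nothing is read from it.

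The knockout group held 8 Deaf1-KO mice of the BALB/c strain, 2 at the age of 4 weeks, 3 at 12 weeks and 3 at 30 weeks, each on an array of its own. The control on each array was a pool of BALB/c wild-type littermates of the same age, from 2 mice at 4 weeks and 3 mice at 12 and 30 weeks. Total RNA of the whole node was labelled with Cy5 for the knockout mouse and Cy3 for the pool, with no dye-swapped array and no wild-type mouse set against a pool. The spread between arrays therefore holds the spread of knockout mice, not that of single wild-type mice, and whether arrays of an age shared 1 pool is not given in the labels. Ratios are log2 values of knockout over wild type. A level is a log2 brightness that cannot be compared between probes. Between arrays, levels on the same probe are only a rough guide, because weak spots read high on the dim second 4-week array.

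Melanin is made inside melanosomes, organelles related to lysosomes. Tyrosinase (Tyr) starts the synthesis, and dopachrome tautomerase and Tyrp1 act after it on the way to the dark pigment. Pmel builds the fibres on which pigment is laid down, Mlana takes part in the maturation of the organelle, Oca2 and Slc45a2 are transport proteins that set its inner milieu, and Mitf and Sox10 are the transcription factors that switch these genes on. The same proteins are classical self antigens of T cells in vitiligo and melanoma, and in mouse lymph nodes tyrosinase has been described as an antigen shown by lymphatic endothelial cells. Deaf1 is a transcriptional regulator that has been linked to the display of tissue-restricted antigens by lymph node stroma. BALB/c mice are albino through a loss of tyrosinase function, and carry the brown allele of Tyrp1.

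RefSeq promoters were at hand for 5 of the 9 genes, and those of Dct, Tyrp1 and Tyr are shown because these enzymes act in 1 pathway but gave unlike signals here. Each stretch holds the 250 bases before the annotated start in GRCm38.p6, read 5′ to 3′ on the gene's own strand. Dct lies at chr14:118052247-118052496 on the minus strand, Tyrp1 at chr4:80833963-80834212 on the plus strand and Tyr at chr7:87493513-87493762 on the minus strand. Capitals mark TCATGTGCT, a form of the M-box bound by Mitf, and any further CATGTG on either strand.
Dct: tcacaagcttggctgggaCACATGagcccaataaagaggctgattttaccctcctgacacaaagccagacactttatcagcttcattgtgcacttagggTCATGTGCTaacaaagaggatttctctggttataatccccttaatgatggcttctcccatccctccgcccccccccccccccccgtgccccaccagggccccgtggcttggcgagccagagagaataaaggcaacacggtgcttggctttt
Tyrp1: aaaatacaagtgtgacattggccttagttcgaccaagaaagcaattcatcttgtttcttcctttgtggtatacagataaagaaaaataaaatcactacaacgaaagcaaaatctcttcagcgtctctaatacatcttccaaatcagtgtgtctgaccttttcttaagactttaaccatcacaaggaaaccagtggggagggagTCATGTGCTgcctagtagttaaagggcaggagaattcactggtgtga
Tyr: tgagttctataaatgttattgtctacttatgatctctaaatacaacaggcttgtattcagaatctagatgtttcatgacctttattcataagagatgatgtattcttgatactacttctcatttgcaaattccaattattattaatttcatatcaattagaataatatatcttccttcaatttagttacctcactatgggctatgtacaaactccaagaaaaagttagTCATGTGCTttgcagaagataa

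TCATGTGCT was found once in each of these 3 promoters, ending 143 bases before the start of Dct, 39 before that of Tyrp1 and 14 before that of Tyr. Counted on both strands, it was present in 0.335% of the 32851 promoter stretches of this length, and its core CATGTG, with which it overlaps, in 12.3%. Dct had a second CATGTG, on the opposite strand. TTCG, the core of the sequence to which Deaf1 binds, was present in 38.7% of all stretches, with 2 matches in Tyrp1 and 0 in Dct and Tyr. A match in letters is a description of the window, not of binding.

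Dct was measured by 2 probes on chromosome 14 in mm8, the build of the 4-week files. The first, at chr14:116895169-116895229 on the minus strand, lies nearer the 3′ end of the gene (the 3′ probe). The second, at chr14:116921961-116922020 on the same strand, lies nearer the 5′ end (the 5′ probe). Its 60 bases, which hold 1 open reading frame, are shown because it gives a second reading of the Dct transcript.
Dct 5′ probe: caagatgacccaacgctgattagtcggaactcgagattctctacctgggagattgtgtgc

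The 2 arrays at 4 weeks differed in brightness, which bears on every value below. Over the 14969 probes that were well above background in both channels of all 8 arrays, the median signal after subtracting local background was 2132 for knockout mouse 1 and 232 for knockout mouse 2 at 4 weeks, against 480 and 58 for their wild-type pools. At 12 and 30 weeks it was 557 to 1451 in knockout mice and 575 to 633 in pools. The scanner software called 46.8% to 71.5% of probes well above background in the knockout channel and 37.2% to 62.6% in the wild-type channel, the lowest of each on the second 4-week array. Both arrays of the youngest mice lay on their own slide and were read by another scanner and software release than the rest, so the 4-week age cannot be told apart from these. The lymph node markers were well above background on nearly every array, in 9 or 10 of 10 genes in both channels at 4 weeks. The Deaf1 probe read -0.22 and -0.12 at 4 weeks, 0.34, 0.35 and 0.32 at 12 weeks and 0.14, 0.00 and 0.15 at 30 weeks, and whether it lies in the deleted part of the gene is not given in the sources used here, so it does not check the labels.

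Dct was present in the wild-type pools at 4 weeks and was not well above background in the knockout nodes of that age. On the 3′ probe the level was 5.78 and 7.0 in the 2 Deaf1-KO mice at 4 weeks, against 10.49 and 8.86 in their wild-type pools. Before normalization, the knockout spots had signals of 123 and 68.2 over local backgrounds of 72 and 67, and the wild-type spots had 1094 and 134 over 81 and 59.5. Both knockout spots lay below both wild-type spots in level, and the knockout channel was not well above background on either array. The ratios were -4.71 and -1.85, a mean of -3.28 ± 2.02 (SD, n = 2). Over the mean of the 2 arrays, the bound on Dct was 9.73-fold lower in knockout nodes. Such a bound sets the mean wild-type level of an age against the mean of 1 knockout value per array. That value is the higher of the knockout spot's own level and the lowest level of any probe called well above background. For Dct the spot's own level was the higher on both arrays, since the lowest called levels were 5.07 and 6.44. The bound therefore equals the mean ratio and is not a minimum for each mouse or setting. In RNA of a whole node, fewer cells that carry a transcript and less of it per cell cannot be told apart.

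The 5′ probe read the same way with a smaller difference. Its level was 5.72 and 6.52 in the knockout mice at 4 weeks, against 7.80 and 6.99 in the pools, which gave ratios of -2.08 and -0.47. The bound on this probe, 2.42-fold lower in knockout nodes, again equals the mean ratio of the 2 arrays and is not a minimum for each mouse. Here too both pools were well above background and neither knockout mouse was. The pool of 2 mice does not show whether both or only 1 of them carried the transcript.

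At 12 and 30 weeks no wild-type pool had Dct signal well above background, on either probe. On the 3′ probe the level was 6.14, 6.05 and 6.25 in knockout mice at 12 weeks, against 6.30, 6.28 and 6.10 in their pools. At 30 weeks it was 6.35, 6.14 and 6.36 in knockout mice, against 6.27, 6.24 and 6.25 in pools. The groups overlapped at both ages, with ratios of -0.23 to 0.15 at 12 weeks and -0.10 to 0.11 at 30 weeks. The scanner called the 3′ probe well above background in 1 of 3 knockout mice at 12 weeks and 2 of 3 at 30 weeks, at levels that the 5′ probe did not share, since it was not called in a knockout mouse at any age. No direction is given for these ages: on the 3′ probe the 30-week mean ratio was 0.03, but -0.22 with the scanner's processed signals, and on the 5′ probe it was -0.12. The wild-type level on the 3′ probe averaged 9.67 ± 1.16 at 4 weeks (SD, n = 2), 6.22 ± 0.11 at 12 weeks and 6.25 ± 0.01 at 30 weeks (SD, n = 3 each). Levels of different ages are not on a fully common scale. An uncalled knockout spot of this probe read 7.0 on the second 4-week array, and a called one read 6.25 on the third 12-week array.

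**Figure D1:**
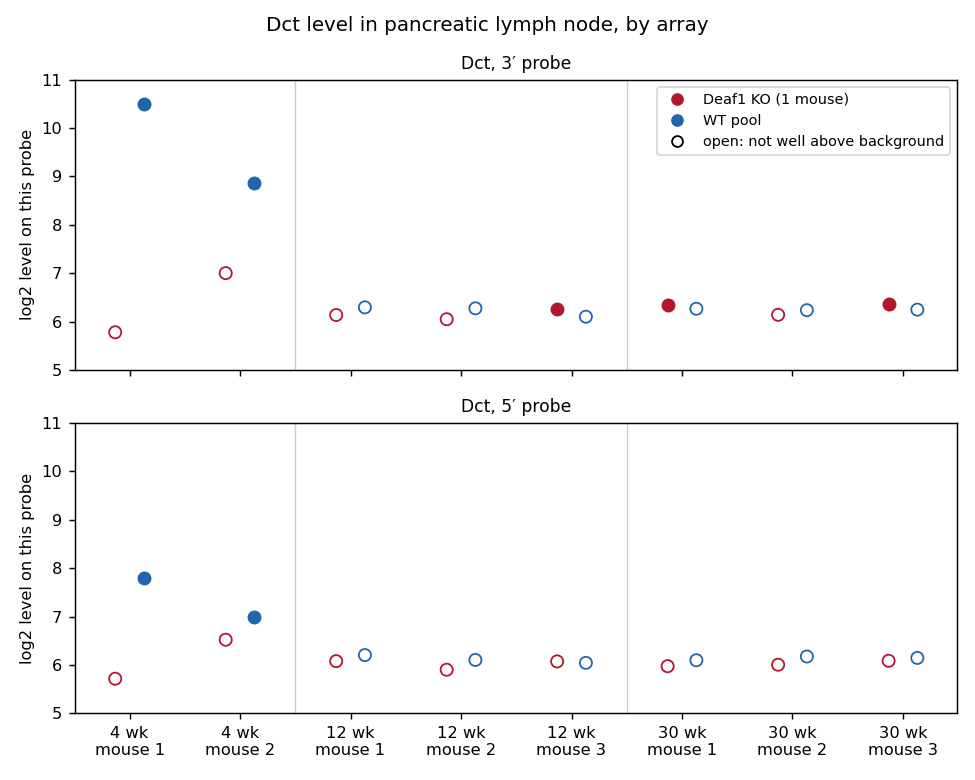
Log2 level of each Dct probe on the 8 arrays, the knockout mouse (red) left of its wild-type pool (blue), with open points where the scanner did not call the spot well above background. On the 3′ probe the wild-type pools stood at 10.49 and 8.86 at 4 weeks, and all other points lay between 5.78 and 7.0.

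The size of the 4-week ratios depended on how background was treated. With the scanner's own processed signals, the Dct 3′ probe had ratios of -7.20 and -6.62 on the 2 arrays, which lie close together, and with an offset of 10 in place of 50 added to each signal they were -5.39 and -3.33. On the 5′ probe the scanner's signals gave -5.28 and -3.45. In these processed signals the scanner had put an estimate in place of the knockout signal on the second array for the 3′ probe, and on both arrays for the 5′ probe, so their size rests on that estimate. The sign was negative on both arrays under all 3 treatments.

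**Figure D2:**
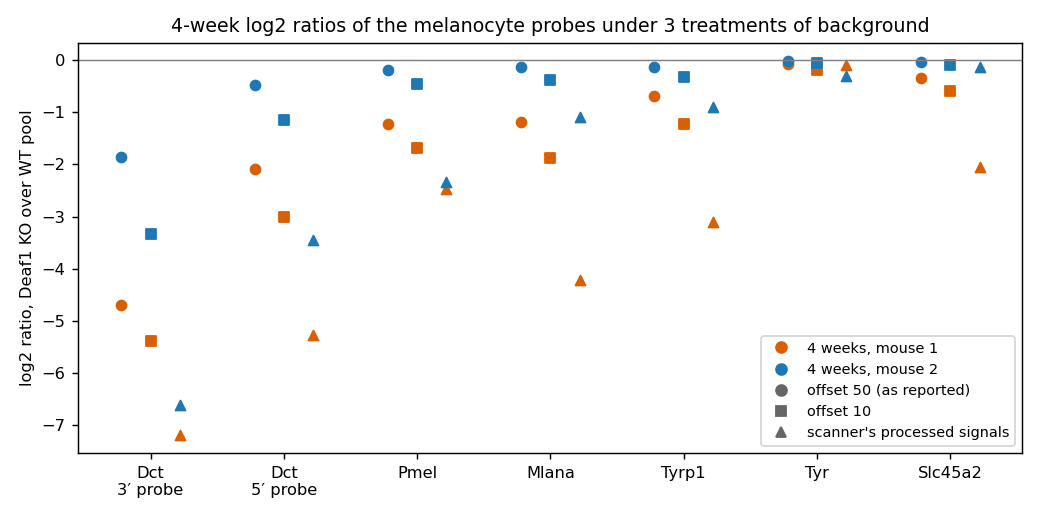
Log2 ratios of knockout over wild type at 4 weeks for 7 probes of 6 genes, by mouse (colour) and treatment of background (shape). With the scanner's processed signals the Dct 3′ probe lay at -7.20 and -6.62, against -4.71 and -1.85 with an offset of 50.

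Tyrp1 and Tyr, the other enzymes of the pathway, were each printed in 10 spots per array, so the error within an array could be seen. Tyrp1, at chr4:80322452-80322511 (mm8, plus strand), had a level of 5.91 and 6.23 in knockout mice at 4 weeks, against 6.60 and 6.34 in pools. On the first 4-week array all 10 wild-type spots and 0 of 10 knockout spots were well above background, and the mean ratio was -0.69 with an SD of 0.086 over 9 spots used. On the second array no spot was well above background in either channel and the ratio was -0.12, with an SD of 0.101 over 10 spots. By the bound over the mean of the 2 arrays, Tyrp1 was 1.23-fold lower in knockout nodes at 4 weeks. This is not a minimum for each mouse. On the second array the pool's 6.34 lay below the lowest called knockout level, 6.44. The ratio of Tyrp1 lay between -0.02 and 0.08 on all 6 arrays at 12 and 30 weeks, with no spot above background.

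Tyr, at chr7:87303516-87303575 (mm8, minus strand), gave no signal like that of Dct or Tyrp1. Its ratio was -0.07 and -0.02 at 4 weeks, -0.08, -0.04 and -0.02 at 12 weeks and -0.03, -0.07 and -0.01 at 30 weeks. The probe as a whole was not well above background in either channel at any age, and only 1 of 10 knockout spots was called on 1 array at 12 weeks and 1 at 30 weeks. Since both channels lay at background, no fold is given.

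**Figure D3:**
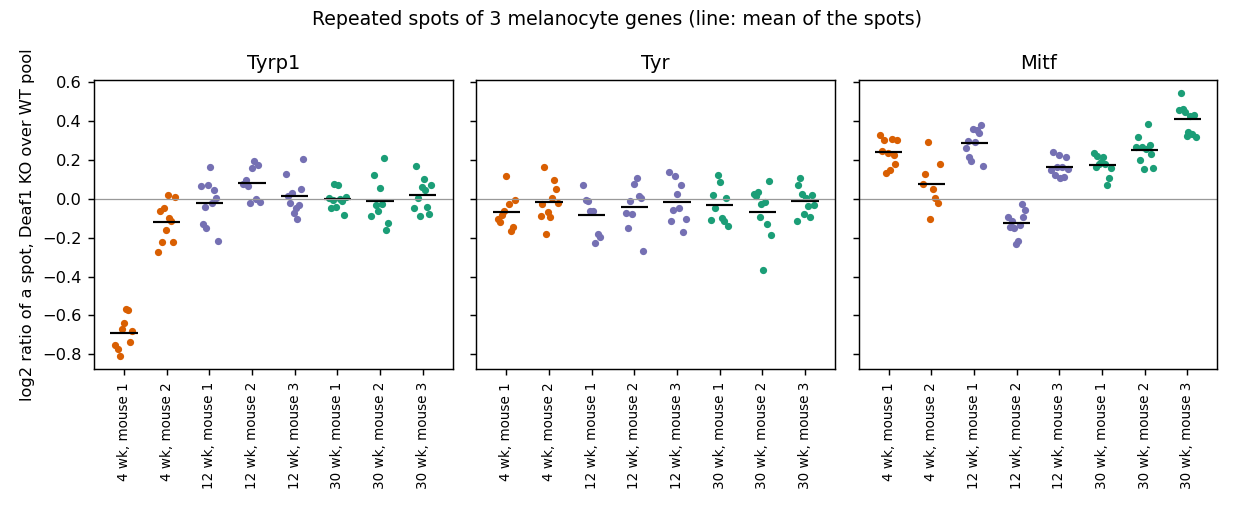
Log2 ratio of each spot of Tyrp1, Tyr and Mitf by array, with the mean of the spots as a line. The spots of Tyrp1 on the first 4-week array averaged -0.69 and lay apart from those of the other arrays, whereas Tyr stayed between -0.08 and -0.01 in its array means.

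Pmel, the fibre protein, was measured by 1 probe whose match spans chr10:128121922-128122879 (mm8, plus strand). Its level was 6.38 and 6.69 in knockout mice at 4 weeks, against 7.61 and 6.87 in pools. The ratios were -1.23 and -0.18, a mean of -0.71 ± 0.74 (SD, n = 2). Both channels were well above background on the first array and neither was on the second. With the scanner's processed signals the ratios were -2.47 and -2.33. At 12 weeks Pmel was 6.46, 6.44 and 6.43 in knockout mice, against 6.47, 6.36 and 6.35 in pools, with ratios of -0.00 to 0.08. At 30 weeks it was 6.34, 6.37 and 6.35 in knockout mice, against 6.51, 6.49 and 6.53 in pools. The mean ratio at that age was -0.16 ± 0.03 (SD, n = 3), and Pmel was not called in the fit (adjusted p = 0.462, limma).

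Mlana, a melanosome protein best known as the antigen MART-1, had signal on the first 4-week array only, in the pool. Its probe lies at chr19:29774346-29774405 (mm8, plus strand). The level was 5.91 and 6.11 in knockout mice at 4 weeks, against 7.08 and 6.24 in pools, and the ratios were -1.17 and -0.13. Only the wild-type spot of the first array was well above background. Over the mean of the 2 arrays the bound was 1.40-fold lower in knockout nodes, which is not a minimum for each mouse. At 12 and 30 weeks neither channel was above background and the ratios lay between -0.07 and 0.13.

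Slc45a2, a transporter of the melanosome membrane, had a ratio of the opposite sign in older mice. On its probe at chr15:10972611-10972670 (mm8, plus strand) the ratios were -0.33 and -0.03 at 4 weeks, where both channels lay at background. At 12 weeks the level was 6.27, 6.34 and 6.40 in knockout mice, against 6.23, 6.22 and 6.16 in pools. At 30 weeks it was 6.36, 6.45 and 6.35 in knockout mice, against 6.18, 6.20 and 6.16 in pools. The wild-type channel stayed near background on all 8 arrays. The knockout channel was well above it on 3 of 3 arrays at 12 weeks and 1 of 3 at 30 weeks. The bounds were 1.06-fold higher in knockout nodes at 12 weeks and 1.12-fold at 30 weeks. Each is over the mean of the arrays of an age and is not a minimum for each mouse. The probe was kept by the filter only through the 12-week knockout arrays. After median centring in place of the loess, the 12-week mean was -0.14 in place of 0.13.

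Oca2 was not found under its own name. A probe with the older name p and a RefSeq accession of Oca2 had both channels near background on all 8 arrays, and its ratios lay between -0.07 and 0.32.

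The transcription factors upstream did not share the 4-week difference. The 10 spots of the first Mitf probe, at chr6:97983855-97983914 (mm8, plus strand), gave a level of 7.59 and 7.33 in knockout mice at 4 weeks, against 7.35 and 7.26 in pools. Its ratios were 0.24 and 0.08 at 4 weeks, 0.28, -0.13 and 0.16 at 12 weeks and 0.17, 0.25 and 0.41 at 30 weeks. On the second 4-week array 10 of 10 knockout spots but only 1 of 10 wild-type spots were well above background. The ratio of 0.08 therefore rests on a pool channel near background. At 30 weeks the level was 7.76, 7.80 and 7.96 in knockout mice, against 7.59, 7.55 and 7.55 in pools. Mitf is also expressed in mast cells, osteoclasts and macrophages. The second Mitf probe was called in neither channel at any age.

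Sox10, which marks neural crest derivatives such as melanocytes and Schwann cells, was well above background in both channels of all 8 arrays on its first probe, at chr15:78982330-78982389 (mm8, minus strand). At 4 weeks the level was 7.36 and 7.90 in knockout mice, against 7.53 and 7.91 in pools. Its ratios were -0.17 and -0.01 at 4 weeks, 0.00, 0.18 and 0.55 at 12 weeks and 0.17, 0.01 and -0.02 at 30 weeks. With median centring the 4-week mean was 0.27 in place of -0.09. The second Sox10 probe was called in neither channel at any age.

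**Figure D4:**
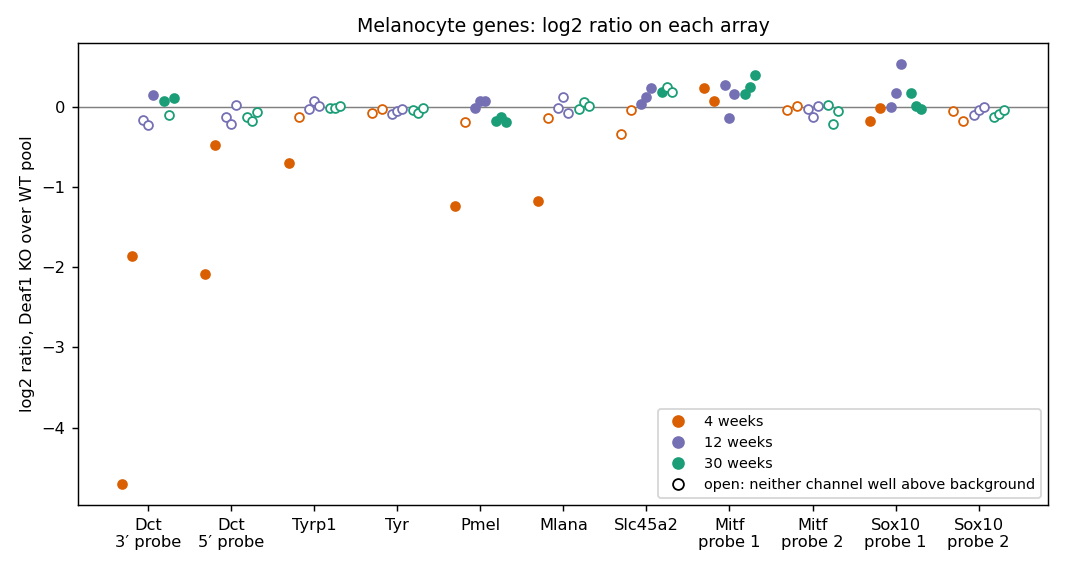
Log2 ratio of knockout over wild type for the 11 probes on each array, by age, with open points where neither channel was well above background. The 4-week points of Dct, Tyrp1, Pmel and Mlana reached -4.71, -0.69, -1.23 and -1.17, whereas those of Tyr, Mitf and Sox10 lay between -0.17 and 0.24.

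Counted over the 8 genes, melanocyte genes were well above background more often in the first wild-type pool than elsewhere. On the first 4-week array 3 of 8 genes were so in the knockout mouse, against 6 of 8 in the pool, and on the second array 2 of 8 in each. At 12 and 30 weeks the count was 2 to 5 of 8 in knockout mice and 3 of 8 in each pool. In the fit over all genes, 2 of the 5 tested genes, Dct and Pmel, were called lower at 4 weeks, where 7.39% of all genes were called lower and 15.3% higher. The choice of the genes rests on that contrast. The filter kept Dct only through the 4-week wild-type pools, so nothing is read from these calls. At 12 weeks 0 of 5 were called by limma (1 at an unadjusted p under 0.05), against 2.59% of all genes (1.22% higher and 1.37% lower). At 30 weeks only Mitf was called, higher, where 20.6% of all genes were called higher and 18.4% lower.

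**Figure D5:**
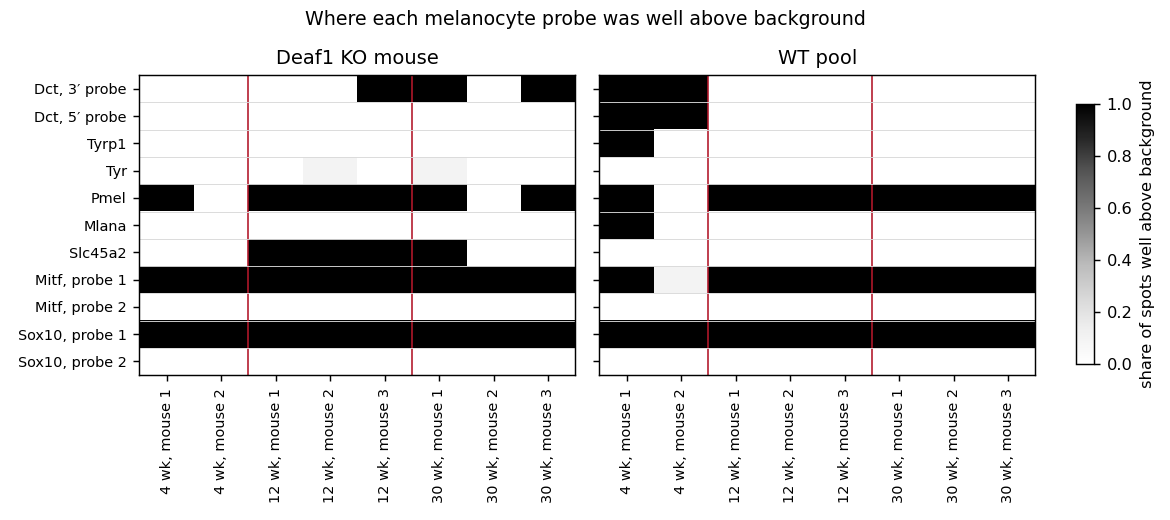
Share of the spots of each probe that the scanner called well above background, in the knockout mouse (left) and the wild-type pool (right), by array. Both Dct probes, Tyrp1, Mlana, Pmel, 1 Mitf probe and 1 Sox10 probe were so in the first 4-week pool, and neither Dct probe was in a pool at 12 or 30 weeks.

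The other genes of pigment biology were taken from 4 lists: melanosome cargo, melanocyte signalling, relatives of Mitf, and builders of lysosome-related organelles. Of the 54 that could be tested, 16 were called at 4 weeks, 9 higher and 7 lower, a share of 29.6% against 22.7% of all genes. At 12 weeks 3 were called, 1 higher and 2 lower (5.56% against 2.59%). At 30 weeks 23 were called, 10 higher and 13 lower (42.6% against 39% of all genes). The named 12-week calls below, in these and the marker lists, were lost, all 7 of them, without knockout mouse 1 or 3 of that age or mouse 3 of 30 weeks, and 12 of the 27 named at 30 weeks were lost with median centring. The median ratio of the 54 genes was -0.04, 0.01 and 0.02 at the 3 ages, beside 0.02, 0.02 and 0.03 over all genes. Without knockout mouse 1 only 1 gene was called at 4 weeks. The 12-week count was 0 to 9 over the 8 arrays left out in turn, and the 30-week count was 14 without knockout mouse 1 and 13 without knockout mouse 3 of that age.

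Among melanosome genes at 4 weeks, 1 of 13 was called lower and 1 higher. Lrmda, a gene of melanocyte differentiation whose loss causes albinism in humans, had levels of 7.33 and 9.36 in knockout mice, against 10.16 and 9.77 in pools. Its ratios were -2.84 and -0.41. The fitted -1.62 ± 0.47 (SE, from a spread shared by the 3 ages) had an adjusted p of 0.0392 (limma). That call was lost without the first array, which left -0.41, and in 6 further settings. Myo5a, the motor that carries melanosomes along actin, rose by 0.92 (adjusted p = 0.00434, limma) at 4 weeks and by 0.56 at 30 weeks. Gpr143 and Mc1r, receptors found on pigment cells, stayed near background in both channels at 4 weeks, as did Pax3, a transcription factor of the melanocyte lineage. Trpm1 and Slc24a5, also genes of the pigment cell, had mean ratios of 0.12 and 0.11 at 4 weeks. Of the 13 tested melanosome genes, 7 had ratios below 0 at that age, with a median of -0.06.

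At 30 weeks 2 of the 13 melanosome genes were called higher and 3 lower. Gpnmb, a melanosome and macrophage glycoprotein, had levels of 6.68, 7.41 and 7.49 in knockout mice, against 8.44, 8.57 and 8.43 in pools, and fell by 1.29 (SE 0.246, adjusted p = 0.00461, limma). Rab27a, which tethers melanosomes and other secretory granules, fell by 0.48.

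Of 14 tested genes of melanocyte signalling, 4 were called higher and 1 lower at 4 weeks. Snai2, a neural crest transcription factor, rose by 1.3 and Zeb2, another, by 0.72. Ednrb, the endothelin receptor of melanoblasts that also marks other cells, rose by 0.71 (adjusted p = 0.0149, limma). At 12 weeks Irf4 rose by 0.48. Lef1 fell by 0.48, but was higher by 0.26 with median centring. At 30 weeks 4 were called higher and 2 lower: Kitl, the ligand of Kit, rose by 0.69 and Zeb2 by 0.68, and Bcl2 fell by 0.57.

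Of the 3 relatives of Mitf, which drive lysosome genes, 1 was called lower at 4 weeks, 1 at 12 weeks and 2 at 30 weeks. Over all genes, 7.39%, 1.37% and 18.4% were called lower at these ages. Tfe3 fell by 0.55 at 4 weeks and by 0.24 at 30 weeks, and Tfeb fell by 0.32 at 12 weeks and by 0.38 at 30 weeks. The 30-week call of Tfe3 was lost in 9 of 17 settings. Tfec was called at no age, with 0.09 at 30 weeks. Of the 24 organelle builders, 4 were called higher and 4 lower at 4 weeks, with the AP-3 adaptor subunits Ap3m1, Ap3s1 and Ap3b1 higher by 0.93, 0.66 and 0.66. At 30 weeks, 4 were higher, among them Hps6 by 0.50, and 6 lower, among them Snapin and Ap3d1, which fell by 0.59 and by 0.52.

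Markers of other cells were read beside Dct, and their part in the result was not tested. Cd207 (langerin), from a list of Langerhans and other dendritic cell genes, had ratios of -2.83 and -1.36 at 4 weeks (fitted -2.09, adjusted p = 0.0314, limma). That call was lost without either 4-week array, and the source of the signal was not tested. Cd207 does not by itself mark cells from skin. Its ratios stood at -0.75, -1.84 and 1.00 at 12 weeks and at 0.97, 0.46 and 0.49 at 30 weeks. Of the 8 genes of this list, Cd207 and Ccr7 were called lower at 4 weeks and Cd1d1 higher, and the summed level was 12180 to 14780 in knockout mice, against 13240 to 16160 in pools.

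For the keratinocyte list, the level summed over genes at 4 weeks was 3583 to 3979 in knockout mice, against 3019 to 3450 in pools, while 5 of 8 tested genes had ratios below 0, with a median of -0.06. It was 4519 to 5467 in knockout mice, against 5966 to 6109 in pools at 12 weeks, and 4273 to 5161, against 6134 to 6421, at 30 weeks. At 4 weeks Krt14, Krt15, Krtdap and Dsg3 were called well above background in neither channel. Krt10 was the only 1 of 8 tested genes called at that age, higher by 0.33, as it was at 12 weeks (0.30) and 30 weeks (0.56), when Sfn fell by 0.73. For Schwann cells the summed level at 4 weeks was 8403 to 8992 in knockout mice, against 7927 to 8267 in pools. Prx fell by 0.43 at 4 weeks, 1 of 9 tested, and Mbp (0.38) and Erbb3 (0.22) were called higher at 30 weeks.

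Of 9 lymphatic endothelial markers, 5 were called higher at 4 weeks, where 15.3% of all genes were, and of the other 4, Madcam1 (-0.39) and Itga2b (-0.03) lay below 0. Lyve1 rose by 1.71, Mmrn1 by 0.98 and Prox1 by 0.73, and the summed level was 8855 to 9248 in knockout mice, against 5213 to 5637 in pools. At 30 weeks 4 of 9 were called lower, where 18.4% of all genes were: Madcam1 fell by 1.02, Itga2b by 0.90 and Flt4 by 0.31. Of the genes not called at that age, Mmrn1 (0.32) and Reln (0.31) lay above 0, and Prox1 (-0.02) and Pdpn (-0.01) lay near it. At 12 weeks Itga2b fell by 0.42. The macrophage list, whose cells can take up pigment, had a summed level of 59010 to 66110 in knockout mice at 4 weeks, against 41690 to 47900 in pools. There 3 of 11 were called higher, Mrc1 (0.94), Adgre1 (0.70) and Marco (0.54), and 2 lower. Siglec1 fell by 0.47 at 12 weeks, but was higher by 0.18 with median centring. At 30 weeks Mrc1 rose by 0.59, Cd68 fell by 0.54 and Csf1r by 0.44.

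Mast cells, which use Mitf, had 0 of 7 tested markers called by limma at 4 weeks, and 0 at an unadjusted p under 0.05. Cma1 fell by 0.86 at 12 weeks and by 0.84 at 30 weeks, when Tpsb2 also fell, by 0.29. Of the other calls at 30 weeks, Ccr7 fell by 0.63 and Epcam by 0.46, and Cd1d1 rose by 0.47 and Ms4a1 by 0.55. Among node markers at 4 weeks Cxcl13 rose by 0.94 and Ms4a1 by 0.59, and Ccr7 fell by 0.75, but was higher by 0.14 with median centring.

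Across the 8 arrays, the genes whose ratios ran most like those of the Dct 3′ probe were Alkbh2 (Pearson r = 0.991), Cgrrf1 (0.990), Triobp (0.989), Cinp (0.985) and Slc22a8 (0.983). Slc22a8 had the widest of these ranges, with -1.04 and -0.48 at 4 weeks and -0.14 to 0.12 later. The genes running most opposite were Rex2 (-0.982), Tirap (-0.979) and Ube2v2 (-0.979), the last with 1.04 and 0.52 at 4 weeks. The points share the 4-week slide, and the first array lies far from the rest, so each r rests largely on that array and is a description.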

How the data were processed

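The deposited scanner files give, for each spot, mean signal and median local background intensity in both channels, processed signals and a log10 ratio, made with Agilent Feature Extraction 9.5.3.1 (4 weeks) or 10.2.1.3 (12 and 30 weeks) per the file headers. The deposited value table equalled the log2 ratio of the processed signals (r of at least 0.99998 per array), not centred, with column medians of -0.0999, -0.211, -0.126, -0.0525, -0.0893, -0.118, 0.152 and -0.134. Its direction, knockout over wild type, follows from the dyes in the labels. Flags for signal well above background are the scanner's.

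Here signals were corrected with normexp (offset 50) and loess within arrays in limma 3.58.1 (R 4.3.3), control spots had weight 0, outlier-flagged spots were left out and spots of a probe averaged. Levels used quantile-normalized average brightness. The filter kept a probe when every array of some age had it well above background in 1 given channel, and the brightest kept probe stood for its gene. One mean per age was tested against 0 in 1 fit of all 8 arrays (two-sided, Benjamini-Hochberg over 18410 genes, called at adjusted p under 0.05), with 5 residual degrees of freedom. The procedure was tested on simulated data. Standard errors and p-values rest on the spread between knockout mice against pools, and the number of arrays limits the precision. Gene names came from RefSeq accessions for 24375 probes, from symbols for 6301, from synonyms for 2426, and otherwise from the files.

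The genes and lists were chosen with earlier results of these data known. Named were all chosen genes, the 3 called genes with the largest ratio of each list and age, the 5 genes most like and 3 most opposite to Dct, and Deaf1, except that 1 gene of the node list is not reported here. Alternatives were the scanner's processed signals, median centring, an offset of 10, no filter or a stricter one, the mean of a gene's probes, outlier spots kept, slide as a random block, a replicate block, and each array left out. Replicate numbers do not pair the mice by the labels, and same-numbered arrays correlated from -0.077 to 0.241 in their deviations.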

Additional observations from a re-analysis of the deposited data

Results flagged for a closer look

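Some ratios had 1 sign on every array of an age and the other sign on every array of another age. These differences between ages were not tested, and age cannot be told apart from slide and scanner at 4 weeks. Among melanocyte genes, Sox10 differed by 0.334 between 12 weeks (0.24) and 4 weeks (-0.09). Its signs rest on values near 0, with 0.003 on the first 12-week array and -0.01 on the second 4-week array. With median centring its means were 0.28 at 12 weeks and 0.27 at 4 weeks. Slc45a2 differed by 0.315 between 12 weeks (0.13) and 4 weeks (-0.18) and by 0.389 between 30 weeks (0.21) and 4 weeks. Its 12-week mean was -0.14 with median centring. Of related genes, Lrmda differed by 1.86 between 30 and 4 weeks, Ednrb by -0.986, Snapin by -0.917 and Hps6 by 0.907. Of the markers of other cells, Cd207 differed by 2.74 between 30 and 4 weeks. Flt4 differed by -0.213 at 12 weeks and -0.399 at 30 weeks from 4 weeks, Marco by -0.821 and -0.847, and Sfn by -0.633 and -1.05. Cxcl13 differed by -1.41 between 12 and 4 weeks and by 0.727 between 30 and 12 weeks. Groups of 2 or 3 arrays were too small for a search for outlying arrays.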

How the results depend on the processing

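The negative sign of Dct at 4 weeks held under all alternatives that gave a value. Its mean was -6.91 with the scanner's processed signals, against -3.28 as reported, and -4.71 to -1.85 with 1 array left out. Leaving out the filter or keeping outlier spots returned the same -3.28, so these settings could not change the sign. Under the stricter filter Dct was not kept and gave no value, and slide and replicate blocks were not run for it. Counts moved more. At 4 weeks 4184 genes were called, against 6497 with the scanner's signals, 9752 with median centring, 6628 with slide as a random block (estimated correlation -0.259), 2750 with the replicate block and 500 to 5188 with an array left out. At 12 weeks 477 were called, against 180, 10306, 8980 and 295 under those 4 settings, 276 with an offset of 10, 313 with the mean of a gene's probes, and 18 to 1850 with an array left out. At 30 weeks 7177 were called, and 3935 to 7943 with an array left out. Of pigment-pathway genes, 16 were called at 4 weeks, against 26 with the scanner's signals, 31 with median centring and 1 to 19 with an array left out. The 3 calls at 12 weeks became 0, 30, 1 (offset 10), 1 (stricter filter), 26 (slide) and 1 (replicate block), with 0 to 9 when an array was left out. The 23 at 30 weeks became 15 with median centring, and 13 to 25 with an array left out. Median centring moved the median of all genes to 0.49, 0.41 and 0.15 at the 3 ages, and reversed Ccr7 at 4 weeks (0.14) and Siglec1 (0.18) and Lef1 (0.26) at 12 weeks. Of the 22 calls named at 4 weeks, 20 were lost without knockout mouse 1, 10 without mouse 2 and 6 with the replicate block. All 7 named at 12 weeks were lost without mouse 1 or 3 of that age or mouse 3 of 30 weeks, and 6 with the scanner's signals. Of 27 named at 30 weeks, 12 were lost with median centring. Among the chosen genes, median centring changed the sign of Sox10 at 4 weeks (0.27), of Slc45a2 (-0.14), Pmel (-0.12), Mlana (-0.41) and Tyrp1 (-0.42) at 12 weeks, and of Dct, Mlana and Tyrp1 at 30 weeks. Ratios of Dct, Mlana, Tyrp1 and Sox10 that lay within 0.06 of 0 at 12 or 30 weeks also changed sign under other settings. The dim channels of the second 4-week array limit the 4-week values.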
